A study of Mus musculus with 24 samples.

Results

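The genes described here encode the first sensors of a broken chromosome and the pathway that ends in 53BP1, and their mRNA was measured in activated mouse B cells with and without Spt5. They are 10 genes, taken by symbol from a count table of 14106 genes: Atm, Mre11a, Rad50, Nbn, Mdc1, Rnf8, Rnf168, Trp53bp1, Rif1 and Mad2l2. All 10 were found, and all 10 passed the filter on low counts that left 12024 genes for testing. B lymphocytes from mouse spleens were cultured with IL4 and LPS, which drive B cells to divide and to switch antibody class. After 28 h, 2 µM 4-hydroxy tamoxifen (4-HT) was added for 32 h, so every culture had 60 h of activation. In 3 libraries the cells were Supt5hFl/- Rosa26ERT2-cre/+, with 1 floxed and 1 null allele of the gene for the elongation factor Spt5 and a Cre recombinase that 4-HT switches on, and they are called depleted below. The 3 control libraries, WT below, came from Rosa26ERT2-cre/+ cells with both Supt5h alleles intact that received the same drug. As the WT cells carried neither the floxed nor the null allele, what the null allele does by itself is mixed with what the induced deletion does. The Rosa26 locus is active in most cell types, so Cre is not limited to B cells. The labels call the cells mature in some fields and immature in others. Nor do they tell whether separate mice gave the libraries of 1 group, and the p-values then reflect the spread among these libraries alone, part of which may be technical.

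When both strands of DNA break, the MRN complex (MRE11, RAD50 and NBS1, the product of Nbn) binds the ends and recruits and activates the kinase ATM. ATM phosphorylates the histone H2AX next to the break, MDC1 reads that mark, and the ubiquitin ligases RNF8 and RNF168 then modify the chromatin so that 53BP1 can bind. 53BP1 works through RIF1 and through shieldin, of which REV7 (the product of Mad2l2) is a subunit, to limit the trimming of DNA ends. B cells need this chain for class switching, in which breaks made on purpose in the antibody heavy chain locus are joined.

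Depth ranged from 23340978 to 25649611 counts in WT and from 17306549 to 21441575 in depleted libraries, so every depleted library was shallower. Supt5, the targeted gene, had between 3512 and 4666 counts in WT and between 189 and 314 in depleted libraries. The groups also differed by Xist, with 11367 to 20130 counts in WT and 18 to 40 in depleted libraries, and by the Y-linked Ddx3y, with at most 1 count in a WT library and 704 to 1019 in depleted libraries. Genotype and the presence of Y-linked mRNA cannot be told apart. This holds for the 10 genes as well, although none of them lies on a sex chromosome. The B cell markers Cd79a, Cd79b, Ms4a1 and Pax5 had at least 509.9 CPM in every library (CPM is the read count scaled to library size with TMM factors). Cd22, another B cell marker, fell by 1.48 on the log2 scale. The 5 T cell markers summed to between 10.9 and 12.3 CPM in WT and between 3.40 and 13.6 in depleted libraries, and none of them passed the test. The 6 myeloid markers summed to between 67.6 and 90.7 CPM in WT and between 95.8 and 173 in depleted libraries, and 5 of them rose. None of the 6 was at 0 in any library. The 2 tested NK cell markers summed to between 10.1 and 14.7 CPM in WT and between 5.36 and 8.10 in depleted libraries, and 1 fell. The part of these markers in the results below was not tested. In such bulk samples, fewer cells of a type and less RNA per cell cannot be told apart.

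In depleted cells 5 of the 10 genes fell, 2 rose and 3 did not pass the test (edgeR's quasi-likelihood test, Benjamini-Hochberg adjusted p under 0.05 over all tested genes). Nbn, Mre11a, Rif1, Mad2l2 and Trp53bp1 were the genes that fell, and Rnf168 and Mdc1 were those that rose. Rad50, Atm and Rnf8 did not pass. The same test called 62.4% of all tested genes, 30.6% lower and 31.8% higher, so 7 of 10 called is near the background and is not a result about this pathway. The median log2 fold change was -0.22 over the 10 genes and 0.005 over all genes tested. For 8 of the 10 genes all 3 depleted libraries lay on 1 side of all 3 WT libraries, against 67.5% of all tested genes, so this count too is near the background. What the members show is therefore in their single values, which ran from a 3.37-fold fall to a 1.73-fold rise. For 7 of the 10 genes the authors' deposited table gave an adjusted p under 0.05, against 52.0% of all its genes. That share includes genes with low counts that were not tested here. DESeq2 refitted on the 12024 tested genes called 7174 of them, so this count is not a result about the pathway either. The log2 fold change in the authors' table was -1.76 for Nbn and 0.78 for Rnf168.

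**Figure D1:**
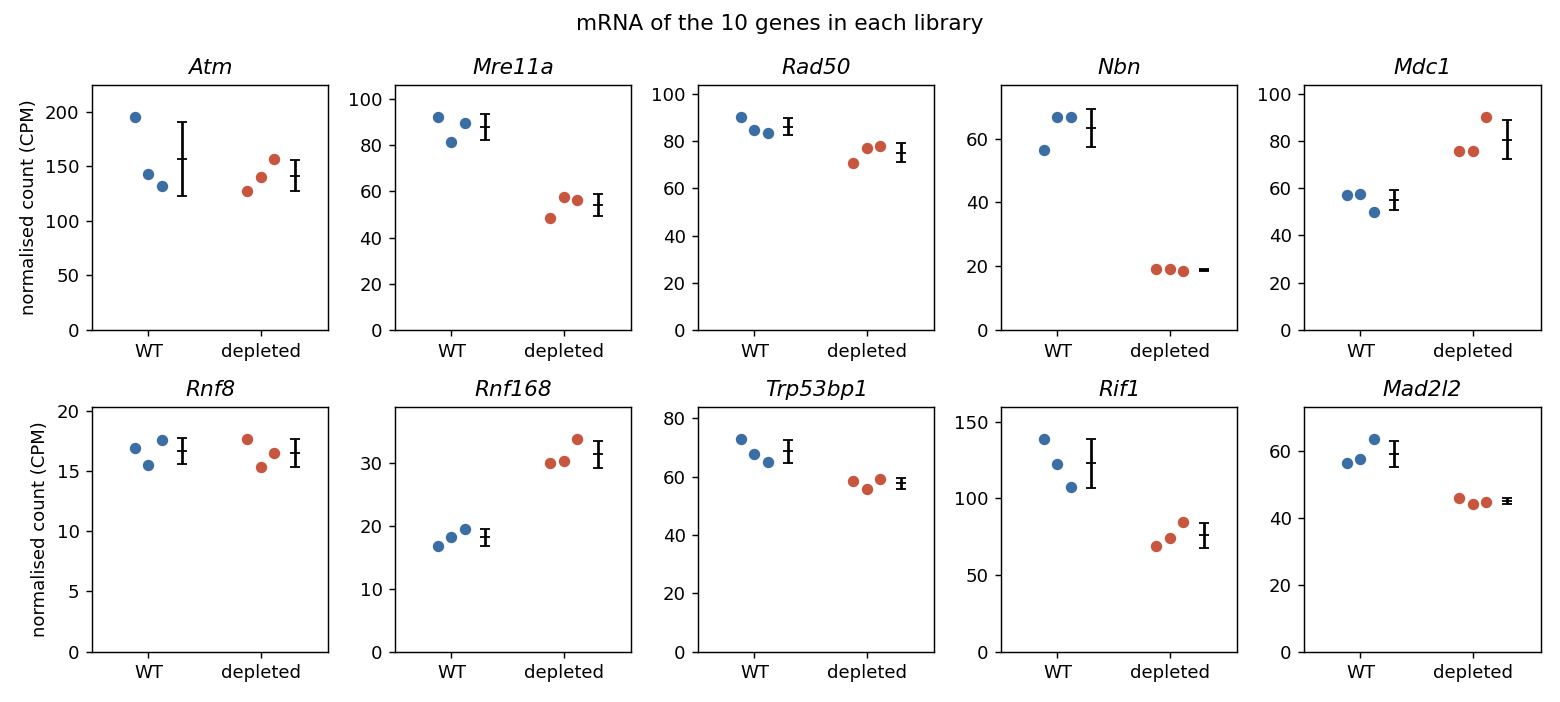
Each panel shows 1 gene, with the normalised read count (CPM) on a vertical axis that starts at 0, a point for each library (blue WT, red depleted) and the mean with SD (n = 3) as a black bar beside it. Nbn has the widest gap, with WT libraries between 56.3 and 66.8 CPM and depleted libraries between 18.3 and 19.1 CPM, while the groups overlap for Atm and Rnf8.

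Short stretches of RefSeq sequence (build GRCm38.p6) before the annotated start are shown for 4 of the genes. They are Mre11a, which fell, Mdc1 and Rnf168, which rose, and Atm, whose stretch shows how little DNA separates it from its neighbour. RefSeq windows matched 7 of the 10 genes by symbol, in 8 windows, and Nbn, Rad50 and Rif1 had none. Each stretch is the part of at most 80 bases nearest to the start that lies in no annotated gene, given 5′ to 3′ on the strand of the gene. The Atm stretch lies 217 to 158 bases before the start, and the bases nearer to the start are not shown. Capitals mark CCAAT boxes (CCAAT or its reverse complement ATTGG), GC boxes (GGGCGG or CCGCCC) and an ETS word (CCGGAAG).
Mre11a, chr9:14784574-14784653, plus strand: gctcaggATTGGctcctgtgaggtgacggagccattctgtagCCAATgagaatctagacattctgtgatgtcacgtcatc
Mdc1, chr17:35841415-35841494, plus strand: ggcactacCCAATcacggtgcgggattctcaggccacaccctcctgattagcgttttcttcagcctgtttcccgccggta
Rnf168, chr16:32277381-32277460, plus strand: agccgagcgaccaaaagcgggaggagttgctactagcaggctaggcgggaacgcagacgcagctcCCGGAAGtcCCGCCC
Atm, chr9:53536829-53536888, minus strand: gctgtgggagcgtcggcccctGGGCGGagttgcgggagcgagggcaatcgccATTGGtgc

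The Mre11a stretch holds CCAAT in either orientation, 73 and 38 bases before the start, and Mdc1 holds it once, 75 bases before. Over the whole 250 bases before the start, searched on both strands, CCAAT was in 5 of the 8 windows of these genes and in 33.8% of 32851 windows of all genes. GGGCGG was in 7 of the 8 and in 32.7% of all windows. The windows of all genes were not limited to genes expressed here, nor matched for GC content. Among the 8, GC content ran from 43.6% (Rnf168) to 77.6% (a Mad2l2 window), and Mad2l2 counts with 2 windows. These shares are therefore not read as an excess in this pathway. CCGGAAG was in the Rnf168 window alone among the 8, and in 6.91% of all. GCATGCG, a word of the factor NRF1, was in the Atm window alone (3.02% of all), and the E2F word TTGGCGC was in 1 of the Mad2l2 windows alone (1.97% of all). The words CACGTG (6.02% of all windows), TATAAA (12.4%) and TTCGCGC (1.28%) were in none of the 8. CCAAT was before Mre11a and Mad2l2, which fell, before Mdc1, which rose, and before Atm and Rnf8, which did not pass. Of the 2 Mad2l2 windows only 1 held CCAAT, and it was not the one with the E2F word. Which of these starts the cells use was not tested. Whether any word goes with a direction was not tested, and Nbn and Rif1, which fell, had no window. Such matches describe letters only.

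Atm encodes the kinase at the head of the pathway. It stood at 195, 143 and 132 CPM in the WT libraries and at 128, 140 and 157 CPM in the depleted libraries. WT replicate 1 was well above the other libraries, which overlapped. The means were 157 ± 34.0 and 142 ± 14.6 CPM (SD, n = 3 each), and the log2 fold change of -0.15 had a 95% interval from -0.44 to 0.15 (edgeR adjusted p = 0.373). The fold change turned to 0.040 without WT replicate 1 and to 0.015 with scaling by library totals alone. Npat, which regulates histone genes and is transcribed away from Atm across the 60 bases shown above, had a log2 fold change of 0.07 (adjusted p = 0.569).

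The 3 genes of the MRN complex differed between the groups by unequal amounts. Nbn, whose product links the nuclease complex to ATM, had 1338, 1471 and 1622 counts in WT and 340, 408 and 424 counts in depleted libraries. Scaled, these were 56.3, 66.8 and 66.8 CPM against 19.0, 19.1 and 18.3 CPM. The depleted libraries were close together (coefficient of variation 2.17%, against 9.54% in WT), and each was far below every WT library. The fall was 3.37-fold (log2 fold change -1.75 ± 0.10 SE, edgeR adjusted p = 3.06e-09), and 1.95% of all tested genes had a log2 fold change as low or lower. Nothing in the processing moved it far: over 14 alternatives the log2 fold change ran from -1.83 to -1.59.

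Mre11a encodes the nuclease of the complex. It stood at 92.2, 81.4 and 89.8 CPM in WT and at 48.5, 57.6 and 56.1 CPM in depleted libraries, with no overlap. The 1.62-fold fall (log2 fold change -0.70 ± 0.09 SE, adjusted p = 1.55e-05 by edgeR) kept its call in all 14 alternatives. Ankrd49, which is transcribed away from Mre11a at its start, had a log2 fold change of 0.24 (adjusted p = 0.0602).

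Rad50 encodes the ATPase that tethers the ends. Its values were 90.3, 84.7 and 83.5 CPM in WT and 70.5, 77.0 and 77.8 CPM in depleted libraries. Every depleted library was below every WT library, but the difference was small and just missed the threshold (log2 fold change -0.20 ± 0.08 SE, edgeR adjusted p = 0.0546). Its 95% interval, from -0.38 to -0.02, holds no fall as large as that of Mre11a. Rad50 passed with DESeq2's size factors (adjusted p = 0.0490) and without WT replicate 3 (0.0293), and over 14 alternatives its adjusted p ran from 0.0293 to 0.723.

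Because a ratio of counts inside a library does not depend on how libraries are scaled, the 3 genes were also set against each other. Gene length enters such a ratio, so only its difference between the groups is read. The log2 ratio of Rad50 to Nbn was 0.68, 0.34 and 0.32 in WT and 1.89, 2.01 and 2.08 in depleted libraries. In depleted cells Nbn was thus 2.92-fold lower relative to Rad50, and 2.06-fold lower relative to Mre11a. Mre11a in turn was 1.42-fold lower relative to Rad50, with log2 ratios of 0.03, -0.06 and 0.10 in WT and -0.54, -0.42 and -0.47 in depleted libraries. In all 3 pairs the groups did not overlap (exact two-sided permutation test, p = 0.1 each, adjusted p = 0.15 over 9 pairs). The exact test of 3 against 3 libraries cannot go below p = 0.1, so none of these pairs could pass.

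**Figure D2:**
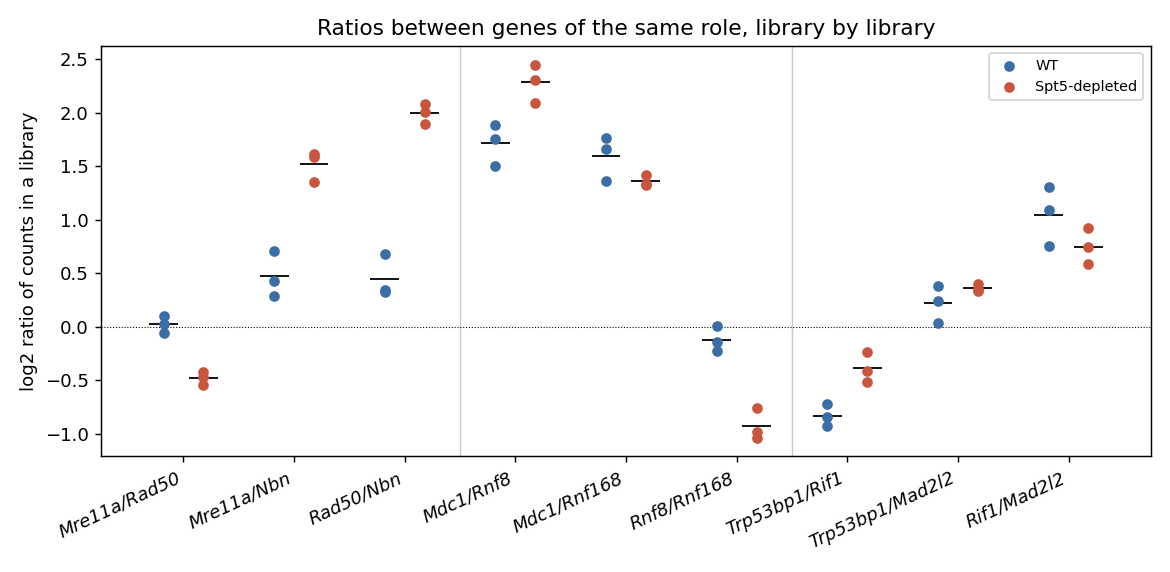
The vertical axis is the log2 ratio of the counts of a pair of genes inside 1 library, for 9 pairs in 3 role groups, with a point per library (blue WT, red depleted) and the mean as a bar. The 3 MRN pairs, the pairs Mdc1/Rnf8 and Rnf8/Rnf168, and Trp53bp1/Rif1 show no overlap between groups, and the largest gap is that of Rad50/Nbn, a difference of 1.55.

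None of the 3 genes that relay the signal over chromatin fell, and 2 of them rose. Mdc1, the reader of phosphorylated H2AX, had 57.2, 57.6 and 50.0 CPM in WT and 75.7, 75.9 and 90.2 CPM in depleted libraries. All 3 depleted libraries were above all 3 WT libraries, and the rise was 1.47-fold (log2 fold change 0.55 ± 0.10 SE, edgeR adjusted p = 0.000186). The next gene on the chromosome upstream, the tubulin gene Tubb5, is transcribed the other way and fell (log2 fold change -0.33, adjusted p = 0.0047). Downstream, Nrm is transcribed the same way as Mdc1 and rose more (log2 fold change 1.47, edgeR adjusted p = 1.1e-08).

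Rnf168, the ligase that makes the histone H2A mark read by 53BP1, rose from 16.8, 18.2 and 19.4 CPM in WT to 30.0, 30.2 and 33.8 CPM in depleted libraries. It amounted to 1.73-fold (log2 fold change 0.79 ± 0.10 SE, edgeR adjusted p = 1.07e-05), the largest rise among the 10 genes. In raw counts, too, the shallower depleted libraries held more, with 538, 646 and 782 counts against 399, 401 and 472. Rnf8, the ligase that acts before it, stood at 16.9, 15.5 and 17.6 CPM in WT and 17.7, 15.3 and 16.5 CPM in depleted libraries. These overlapped throughout (log2 fold change -0.02, 95% interval from -0.25 to 0.22, edgeR adjusted p = 0.896), so a change of the size seen for Rnf168 lies outside the interval. The Rnf8 value turned positive without WT replicate 3 (0.018), without depleted replicate 2 (0.033) and with library totals alone (0.14). Beside Rnf168, the next gene downstream, Ubxn7, rose as well (log2 fold change 0.45, edgeR adjusted p = 0.0018).

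Set against each other inside each library, Rnf168 was 1.75-fold higher relative to Rnf8 in depleted cells, and Mdc1 was 1.48-fold higher, with no overlap between groups (exact permutation p = 0.1 each, adjusted p = 0.15). Between Mdc1 and Rnf168 the log2 ratio differed by -0.24 and the groups overlapped (exact permutation p = 0.2, adjusted p = 0.225). Without WT replicate 1 that difference was -0.15.

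53BP1 itself and its effectors were lower. Trp53bp1 stood at 73.1, 68.0 and 65.1 CPM in WT and at 58.4, 55.7 and 59.1 CPM in depleted libraries. The groups did not overlap, yet the fall was only 1.19-fold (log2 fold change -0.25 ± 0.09 SE, edgeR adjusted p = 0.0197). This call was lost with library totals alone (log2 fold change -0.09, adjusted p = 0.377) and without WT replicate 1, depleted replicate 1 or depleted replicate 2 (adjusted p = 0.0555, 0.0540 and 0.0885). The row of Trp53bp1 has a name suffix, OVL, that possibly stands for overlapping genes, and in RefSeq its span overlaps those of Tubgcp4 (log2 fold change 0.04, adjusted p = 0.736) and Map1a, which was too low to test.

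Rif1, which 53BP1 recruits once ATM has phosphorylated it, had 139, 122 and 107 CPM in WT and 68.9, 74.1 and 84.6 CPM in depleted libraries. The fall was 1.62-fold without overlap (log2 fold change -0.69 ± 0.11 SE, edgeR adjusted p = 5.68e-05), and its libraries varied more than those of most of the other genes, with a coefficient of variation of 12.9% in WT and 10.5% in depleted cells. Mad2l2, for the REV7 subunit of shieldin, went from 56.2, 57.4 and 63.6 CPM to 45.9, 44.2 and 44.7 CPM, a 1.32-fold fall with no overlap (log2 fold change -0.40 ± 0.09 SE, edgeR adjusted p = 0.0012). Agtrap, the nearest gene of the table upstream of Mad2l2, is transcribed away from it and rose (log2 fold change 0.46, adjusted p = 0.0013).

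Relative to Trp53bp1, Rif1 was 1.36-fold lower in depleted cells, with log2 ratios of Trp53bp1 to Rif1 of -0.93, -0.85 and -0.72 in WT and -0.24, -0.41 and -0.52 in depleted libraries (exact permutation p = 0.1, adjusted p = 0.15). The ratios of Trp53bp1 to Mad2l2 and of Rif1 to Mad2l2 overlapped between groups, with differences of 0.14 and -0.30 (exact permutation p = 0.3 and 0.2). The first was 0.051 without WT replicate 3 and 0.22 without WT replicate 1, and the second was -0.17 without WT replicate 1.

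**Figure D3:**
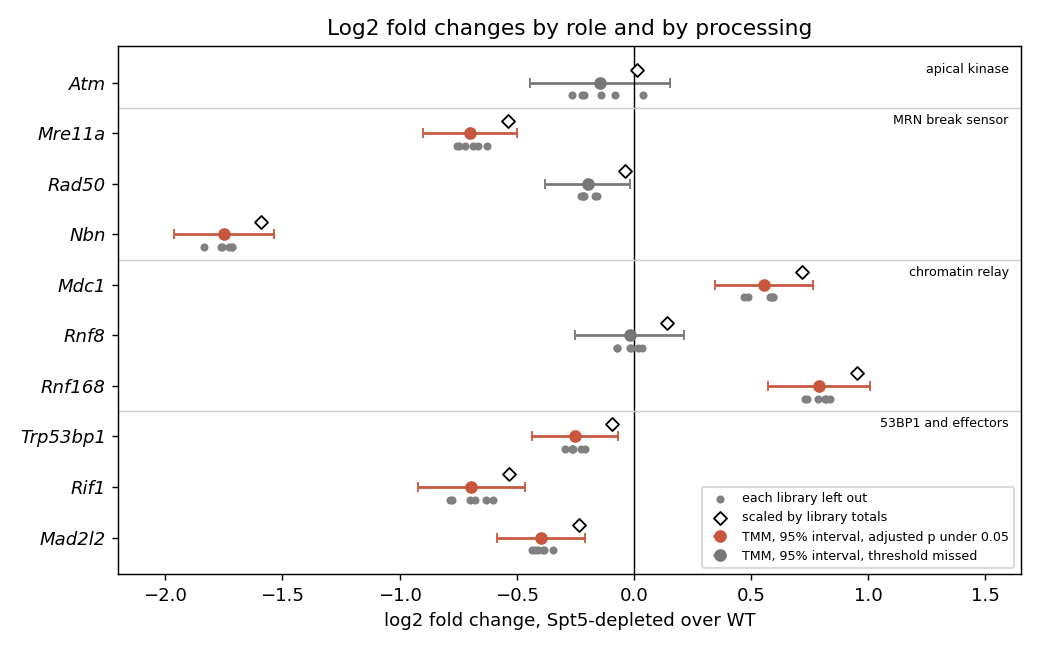
The horizontal axis is the log2 fold change of depleted over WT for the 10 genes, sorted by role, with the 95% interval of the edgeR fit (red where the adjusted p was under 0.05, grey otherwise), grey dots for the fits without each library in turn and open diamonds for scaling by library totals alone. Scaling by totals moves every gene to the right, which leaves Nbn at -1.59 and brings Rad50 to -0.04 and Trp53bp1 to -0.09.

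Scaling by library totals alone shifted the fold changes of all 10 genes upward, and the median over all genes tested was 0.164 in place of 0.005 (log2). It called 63.7% of all tested genes, 41.3% higher and 22.4% lower, and 64.8% of its calls were higher, against 50.9% with TMM. TMM takes most genes as unchanged, and without spike-in RNA the counts are blind to a shift in the amount of mRNA a cell holds. Nbn, Mre11a, Rif1 and Mad2l2 stayed lower and Rnf168 and Mdc1 higher under all 4 scalings. Among proliferation markers, 14 of 15 fell, with a median log2 fold change of -0.68, and their summed level was between 6859.8 and 7093 CPM in WT and between 4359.8 and 4547 in depleted libraries. Which of the 10 genes change with cell division was not measured here. The part of these markers in the falls of Rif1, Mre11a and the others, or in the rises of Rnf168 and Mdc1, was not tested.

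The 10 genes were then placed among 4 lists of other genes of the break response. Their counts are read against the 62.4% of all tested genes that were called, 30.6% lower and 31.8% higher. The share called was near that background in each list, if somewhat under it among the checkpoint genes, so none of these counts is a result about a list. Of 19 tested checkpoint genes, which carry the signal of ATM and its relative ATR, 6 fell and 4 rose (median log2 fold change -0.001). Kat5, the acetyltransferase TIP60 that acetylates ATM, had 60.6 ± 6.38 CPM in the WT and 22.0 ± 1.71 in the depleted group (SD, n = 3 each) and fell by 1.46 on the log2 scale (edgeR adjusted p = 2.96e-08). Topbp1, an activator of ATR, fell by 0.79 on the log2 scale. Rad9a, of the clamp that loads at damaged DNA, rose by 0.43, and its row has the same OVL suffix. Ppm1d, the phosphatase that reverses ATM signalling, rose by 0.30.

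Of 25 tested genes that modify chromatin or ubiquitin at breaks, 10 rose and 6 fell, near the background of 62.4% called (median log2 fold change 0.03). H2afx, which encodes the H2AX histone that MDC1 reads once phosphorylated, had 105 ± 8.16 CPM in the WT and 162 ± 0.37 in the depleted group (SD, n = 3 each) and rose by 0.63 on the log2 scale (edgeR adjusted p = 1.69e-05). Rnf4, a ligase that targets SUMO-modified proteins such as MDC1, rose by 0.49. Otub1, an inhibitor of the ubiquitin conjugating enzyme that RNF168 depends on, fell by 0.86. Usp44, a deubiquitinase that opposes RNF168, had 10.1 ± 1.00 CPM in the WT and 3.29 ± 0.41 in the depleted group (SD, n = 3 each) and fell by 1.61 on the log2 scale (edgeR adjusted p = 7.02e-07).

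Of 14 tested partners of 53BP1 and shieldin 5 fell and 4 rose, again near the 62.4% of all genes (median log2 fold change -0.11). Trip13, the ATPase that remodels REV7, fell by 0.70, and Pola1, the catalytic subunit of the polymerase that refills ends behind shieldin, fell by 0.54. Dynll1, a light chain that binds 53BP1, rose by 0.64, and Asf1a, a histone chaperone that acts with RIF1, by 0.43. Of 14 genes of end resection, the trimming that 53BP1 opposes, 6 fell and 4 rose, also near 62.4% (median log2 fold change -0.06). Dna2, a resection nuclease, fell by 0.70 and Helb, a helicase that restrains resection, by 0.52. Rmi2, for an accessory subunit of the BLM helicase complex, and Wrn, for a helicase of the same family as BLM, rose by 0.70 and 0.51. The medians of the 4 lists ran from -0.11 to 0.03, against 0.005 over all genes tested. Under scaling by totals alone, the lists of checkpoint genes, 53BP1 partners and resection genes had medians that turned to 0.16, 0.05 and 0.10, and the checkpoint list had 8 higher and 4 lower genes. The 16 genes named from these lists kept their direction and their call under all 4 scalings.

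**Figure D4:**
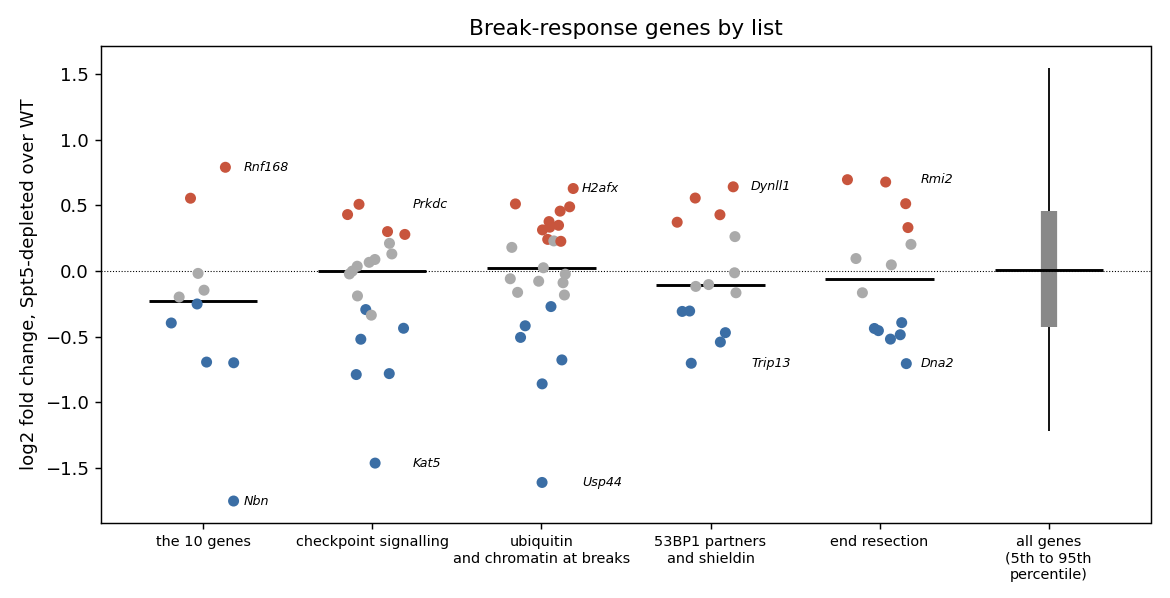
The vertical axis is the log2 fold change of depleted over WT, with a point per gene (red rose, blue fell, grey did not pass), the list median as a bar, and, at the right, the 5th, 25th, 50th, 75th and 95th percentile of all tested genes. Nbn, Kat5 and Usp44 lie below the 5th percentile of all genes, which is -1.22, and no gene of these lists lies above the 95th, which is 1.55.

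Genes whose log2 CPM followed that of Nbn most closely over the 6 libraries were Timd2, Phgdh and Blnk, with Pearson r between 0.9994 and 0.9999. Their log2 fold changes were -2.93, -1.38 and -0.74. With 2 groups of libraries, such values of r mostly reflect the gap between the groups and are a description only.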

How the data were processed

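Poly(A) RNA of 6 cultures was analysed, and the 18 samples of other assays were not analysed here. The SENSE mRNA-seq kit of Lexogen made the libraries, per the labels' protocols. The submitters' processing notes name build mm9 and the tools featureCounts 1.5.0-p1, TopHat, Bowtie2 2.1.0, cutadapt 1.10 and DESeq2 1.10.1. Which annotation and strand setting were used, and what was done with reads of several positions, is not given in the sources used here. Raw read counts by gene, not normalised by the authors, fill the deposited table, with the authors' log2 fold change and adjusted p-value, used only where that table is named. Every gene in it has at least 10 counts over the 6 libraries. Columns named KO were matched to the depleted samples by assay and number. Suffixes were cut from gene names.

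Counts were filtered with filterByExpr, scaled by TMM and tested with edgeR 4.0.16 (robust quasi-likelihood F test, two-sided, Benjamini-Hochberg over 12024 genes, threshold 0.05) in R 4.3.3. Standard errors come from the F statistic. Ratios used log2 of counts plus 0.5 and exact permutation tests. The fit was tested on simulated data in which few of the genes changed. That test does not cover data in which most genes are called, as here. Alternatives were other scalings, a filter at 5 CPM on average or none, DESeq2 1.42.0, limma-voom (limma 3.58.1), the replicate number as a block, a threshold of 0.01 and the omission of single libraries. The spread between replicates of a group was wider than sampling noise, and wider in WT than in depleted libraries. Chi-square over its degrees of freedom ran from 28.0 to 33.2 for WT pairs and from 6.45 to 10.8 for depleted pairs.

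The members and lists were chosen with earlier results of these data known. Named genes are the 10 members, Supt5 and the 3 genes most like Nbn. From each of the 4 lists, the 2 risen and 2 fallen genes with the smallest p and at least 5 CPM are named. Neighbours are named that overlap or diverge from a member. Nrm and Ubxn7, downstream of the 2 risen members, lie outside that rule, and both went the way of their member. The other tested neighbours went both ways. Beside Nbn, Decr1 rose (log2 fold change 0.76) and Osgin2 did not pass (-0.10), while Kif3a and Irf1 beside Rad50 fell (-1.28 and -0.51). Neb beside Rif1 (-0.60), Cmtr1 beside Rnf8 (-0.04) and Fbxo6 beside Mad2l2 (0.06) did not pass. RefSeq windows gave the strands, so divergence is not known for the neighbours of Nbn, Rad50 and Rif1. Tbc1d22bos, which diverges from Rnf8, was too low to test. Of the list genes, L3mbtl1, Shld3 and Ncr1 found no row under the names used, and Klrb1c was too low to test. Shld1 and Adgre1 were found under older names. 1 B cell marker is not reported here.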

Additional observations from a re-analysis of the deposited data

How the results depend on the processing

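Across 14 alternatives the calls of Nbn, Mre11a, Rif1, Mad2l2, Rnf168 and Mdc1 held. The number of lower members ran from 4 to 6 and that of higher members stayed at 2. Of 140 refitted log2 fold changes of members, 129 kept their direction and side of the threshold. Those of members that turned sign were Atm with library totals alone (0.015) and without WT replicate 1 (0.040), and Rnf8 with library totals alone (0.14), without WT replicate 3 (0.018) and without depleted replicate 2 (0.033), none of them past the threshold. Leaving out each library gave -0.26 to 0.040 for Atm and -0.071 to 0.033 for Rnf8. For these the cause was not tested. With library totals alone 8 checkpoint genes were higher and 3 genes of the list of 53BP1 partners were lower, against 4 and 5. At an adjusted p under 0.01 the checkpoint list had 2 higher genes. The log2 ratios kept their direction in all 72 refits, among which those with the replicate block cannot differ from the main values. Without single WT libraries the differences for Mdc1/Rnf168, Trp53bp1/Mad2l2 and Rif1/Mad2l2, whose groups overlap, moved by more than 1.5 times (-0.15, 0.051 to 0.22, and -0.17).

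The replicate numbers shared by the groups were not found to pair the libraries: same-numbered libraries correlated in their deviations at 0.02, -0.07 and -0.09, and WT replicate 2 was closest to depleted replicate 3 (0.19). With the replicate block 5 members were lower and 2 higher, the log2 fold change of Nbn was -1.75, and 7369 genes were called in all, against 7504. The difference in the log2 ratio of Rad50 to Nbn was 1.55 with the block. It could not change, since the mean of 3 paired differences equals the difference of the group means. An exact test by sign flips of 3 pairs cannot go below p = 0.25. Depth was not limiting for the members, each of which had at least 317 counts in every library.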
